A study of Homo sapiens with 16 samples.

Results

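LINC genes are long noncoding RNA genes that lie mostly between protein-coding genes and carry a running number in place of a descriptive name. Those examined here were selected on their raw read counts, which are also the values analysed: every gene whose symbol is LINC followed by digits and whose counts summed to 200 or more over 16 libraries. This choice kept 85 of 62069 gene identifiers. The table held 2057 LINC genes in all, of which 1069 had at least 1 count.

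The libraries came from IMR90 ER:RAS cells, a human lung fibroblast line that carries an oncogenic RAS fused to an estrogen receptor domain, so that 4-hydroxytamoxifen (4OHT) switches RAS on and drives oncogene-induced senescence. Each group had 4 libraries, all collected at day 6 from passage 15 cultures. In 2 groups cells were given 100 nM 4OHT and carried a short hairpin RNA against AHCY, named shAHCY_2 and shAHCY_4. The third, EV_4OHT, carried an empty vector and received the same 4OHT. The last, EV, carried the empty vector and was not senescent. AHCY hydrolyses S-adenosylhomocysteine, the product that methyl transfer leaves behind. All groups share the ER:RAS construct, and cells without it given 4OHT were not analysed here. RAS activation and 4OHT itself therefore cannot be told apart in the comparison of EV_4OHT with EV. Below, "with RAS activation" is shorthand for that comparison and does not separate the 2. Separate cultures are not stated for replicate libraries. The p-values therefore reflect only how libraries of a group vary, which may be technical variation.

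Long intergenic noncoding RNAs are transcribed by RNA polymerase II, and most are capped, spliced and polyadenylated like mRNA. They are usually less abundant than mRNA and more restricted to a cell type or state. Some act at their own locus, on a neighbouring gene, and others act elsewhere in the nucleus or cytoplasm. For most numbered LINC genes no function is established. In oncogene-induced senescence a lasting growth arrest comes with a rewired set of active enhancers, where AP-1 transcription factors are prominent, and with secretion of inflammatory factors.

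Promoters of 4 genes are printed because their RNAs are among those with the largest changes described below. Of the 85 genes, 56 had a window of 300 bases, from 250 before to 50 after the annotated start, in RefSeq (GRCh38.p14). Capitals mark TGANTCA, with any base at N, on either strand. This pattern is looser than the AP-1 consensus, which has C or G at N. The windows are chr3:98914316-98914615 (plus strand) for LINC00973, chr2:228611346-228611645 (minus strand) for LINC01807, chr12:90293068-90293367 (plus strand) for LINC02392 and chr1:222059344-222059643 (minus strand) for LINC01705.
LINC00973: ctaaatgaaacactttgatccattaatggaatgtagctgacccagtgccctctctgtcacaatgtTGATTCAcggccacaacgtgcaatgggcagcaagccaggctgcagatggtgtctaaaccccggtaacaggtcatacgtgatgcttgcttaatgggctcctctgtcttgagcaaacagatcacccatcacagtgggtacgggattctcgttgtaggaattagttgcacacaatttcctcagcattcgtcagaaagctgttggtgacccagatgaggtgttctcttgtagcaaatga
LINC01807: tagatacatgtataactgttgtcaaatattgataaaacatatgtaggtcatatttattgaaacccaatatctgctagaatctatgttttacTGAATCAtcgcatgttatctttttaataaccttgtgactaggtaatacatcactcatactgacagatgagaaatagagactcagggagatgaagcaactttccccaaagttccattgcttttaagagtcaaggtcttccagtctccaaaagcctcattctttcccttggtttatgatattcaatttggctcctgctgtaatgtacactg
LINC02392: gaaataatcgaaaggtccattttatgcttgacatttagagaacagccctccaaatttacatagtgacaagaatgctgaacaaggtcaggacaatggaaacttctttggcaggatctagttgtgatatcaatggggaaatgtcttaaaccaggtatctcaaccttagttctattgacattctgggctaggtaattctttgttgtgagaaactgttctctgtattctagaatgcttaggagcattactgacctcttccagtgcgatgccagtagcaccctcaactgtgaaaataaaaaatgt
LINC01705: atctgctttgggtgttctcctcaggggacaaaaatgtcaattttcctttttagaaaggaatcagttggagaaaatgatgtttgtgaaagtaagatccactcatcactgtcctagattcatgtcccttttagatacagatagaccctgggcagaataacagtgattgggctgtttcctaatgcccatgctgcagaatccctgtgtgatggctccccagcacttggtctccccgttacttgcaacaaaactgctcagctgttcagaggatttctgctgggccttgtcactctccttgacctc
The capitals begin at position -185 from the start of LINC00973, as TGATTCA, and at -159 from that of LINC01807, as TGAATCA. Neither stretch has C or G at N, and the windows of LINC02392 and LINC01705 have no match. TGANTCA, matches with A or T at N included, was in 11 of the 56 windows (19.6%), against 7.71% of 35116 RefSeq windows of the same length. Among windows of genes that rose with RAS activation 5 of 16 held it, among those that fell 1 of 8, and among those past the threshold in neither direction 5 of 32. Of the other motifs, TTTGAA was in 17.9% of the windows and in 15.2% of all windows, TGACG in 19.6% and 24.6%, CACGTG in 5.36% and 7.26%, and the kappa-B motif in 5.36% and 11.3%. Motif matches describe letters in these windows and are not measured binding sites. The median GC content was 55.15% for the 56 windows, against 58.7% for all windows.

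By the GENCODE 29 annotation, 65 of the 85 genes were lincRNAs, 7 processed transcripts, 5 transcribed unprocessed pseudogenes and 4 antisense genes. LINC02693 was annotated there as a protein-coding gene under another symbol, so its place among noncoding RNAs rests on the newer symbol. The longest transcript had a median of 2161 bases and ranged between 540 and 21221 bases, and 12 genes had a single exon in it. The genes lay on 22 chromosomes, and 9 overlapped a coding gene, 4 of them on the same strand and 5 on the opposite one. Smart-Seq2 libraries do not mark strand, so a read from a stretch that a LINC gene shares with a partner's exons cannot be assigned to either with certainty. A further source of uncertainty is shared sequence. In 13 genes at least 50% of the longest transcript matched another gene at 95% identity or more, LINC02802 and LINC00265 among them, and their counts are uncertain for that reason.

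Total counts per gene ranged between 200 and 23591, with a median of 573, and the 6 genes with the most counts held 47.8% of the sum. Just inside the threshold were LINC00663 with 200 counts, LINC01535 with 207 and LINC01881 with 211, and just outside it LINC02941 with 194, LINC02709 with 193 and LINC01814 with 187. All 85 genes passed the filter on low counts and were tested. Because the threshold used the summed counts, 22 genes would be under it without the group in which they had most counts. Of these, 16 had most counts in EV.

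Library totals ranged between 8236199 and 18235787 counts. AHCY averaged 18.5 ± 4.5 CPM (counts scaled to a common library size) in shAHCY_2 and 14.7 ± 2.2 CPM in shAHCY_4, against 164 ± 8.1 CPM in EV_4OHT (SD, n = 4 each), so both hairpin groups match their labels. Fibroblast markers were present in every library, with a lower sum in the 3 groups given 4OHT. Marker sums were scaled by library totals alone. The 9 fibroblast genes summed to 4749 to 5399 CPM in shAHCY_2, 4794 to 5441 CPM in shAHCY_4 and 4644 to 4884 CPM in EV_4OHT, against 11092 to 12772 CPM in EV. Epithelial markers summed to 1.89 to 2.59 CPM in shAHCY_2, 2.23 to 3.96 CPM in shAHCY_4 and 2.29 to 3.81 CPM in EV_4OHT, against 51.2 to 60 CPM in EV, almost all of it KRT19, endothelial markers to 2.44 to 7.77 CPM and leukocyte markers to 0.11 to 1.21 CPM. PECAM1, CDH5, CD3E and KRT14 were at 0 in all 16 libraries. Mitochondrial genes took 4.78 to 5.33% in shAHCY_2, 4.38 to 5.04% in shAHCY_4 and 6.34 to 6.47% in EV_4OHT, against 5.31 to 5.85% in EV of counts. The part of these differences in the results below was not tested.

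The 85 LINC genes together took a larger share of the RNA in senescent cells, and both AHCY hairpins lowered that share. They held 0.0689% ± 0.0015 of counts in shAHCY_2 libraries and 0.0590% ± 0.0022 in shAHCY_4 libraries, against 0.0790% ± 0.0013 in EV_4OHT libraries and 0.0420% ± 0.00074 in EV libraries (SD, n = 4 each). No 2 groups overlapped. Single libraries lay between 0.0670% and 0.0702% in shAHCY_2, between 0.0568% and 0.0615% in shAHCY_4, between 0.0774% and 0.0801% in EV_4OHT and between 0.0414% and 0.0431% in EV. The differences were 0.0371 percentage points for EV_4OHT over EV, -0.0101 for shAHCY_2 over EV_4OHT, -0.0201 for shAHCY_4 over EV_4OHT and 0.00993 for shAHCY_2 over shAHCY_4. Each gave p = 0.0286 in a two-sided exact permutation test (2 times the smaller one-sided p), the smallest p that 4 against 4 libraries allow, and 0.0286 after Benjamini-Hochberg adjustment over the 4 comparisons. The threshold on summed counts favours genes that are abundant in some group, so the share describes these 85 genes and not LINC genes in general. The 3 comparisons that involve EV_4OHT share its libraries and are not independent.

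**Figure D1:**
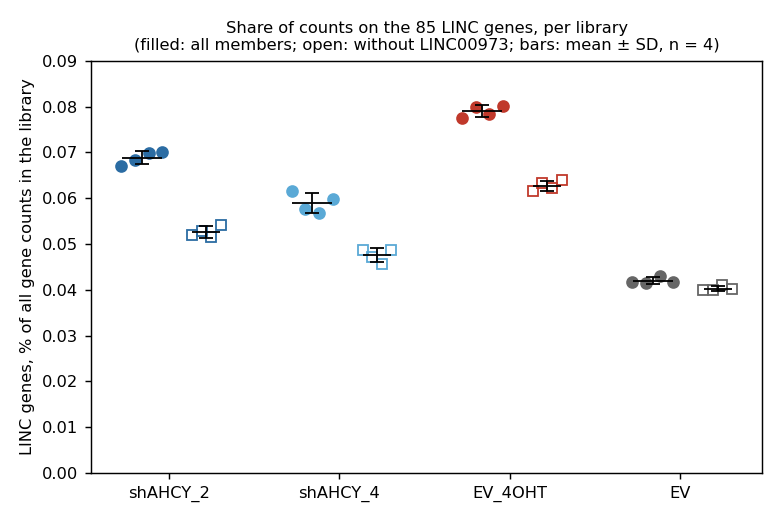
Share of all counts that fell on the 85 LINC genes, in percent, per library, with the mean and SD of each group of 4 (groups left to right: shAHCY_2, shAHCY_4, EV_4OHT, EV). EV_4OHT libraries sit between 0.0774% and 0.0801%, EV libraries between 0.0414% and 0.0431%, and both hairpin groups lie between them.

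A few genes carried the share. LINC00973 made up 39.3% of the net difference between EV_4OHT and EV, LINC01705 22.8%, LINC02154 15.1% and LINC02802 9.6%. With LINC02392 these 5 genes came to 94.1%. LINC01705, LINC02154, LINC02802, LINC02392 and LINC01128 accounted for 93.8% of the net decrease with shAHCY_2. LINC00973 was absent from that list, but it led the decrease with shAHCY_4, with 24.5% of it. The groups did not overlap without LINC00973 either. Per kilobase of longest transcript, LINC00973 had a level of 176 CPM in EV_4OHT, LINC01705 158, LINC02802 125, LINC02392 48.9 and LINC02154 39.2. The next gene on that scale, LINC02454, was at 11.9 CPM per kilobase in EV_4OHT.

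In EV_4OHT over EV, 39 of the 85 LINC genes passed the threshold, 26 of them upward and 13 downward (edgeR quasi-likelihood test, Benjamini-Hochberg adjusted p under 0.05 over 13526 genes). That is 45.9% of the LINC genes, while 53.5% of all tested genes passed. Upward calls were 30.6% of the LINC genes, against 26.7% of all genes, and downward calls 15.3%, against 26.8%. At 2-fold or more, 17 rose and 8 fell, and the share of all genes at that cutoff was not computed. The median log2 fold change was 0.13 over the 85 genes and -0.02 over all tested genes. Scaling by library totals alone moved the median of all genes to -0.13, and 24 LINC genes then rose and 18 fell.

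**Figure D2:**
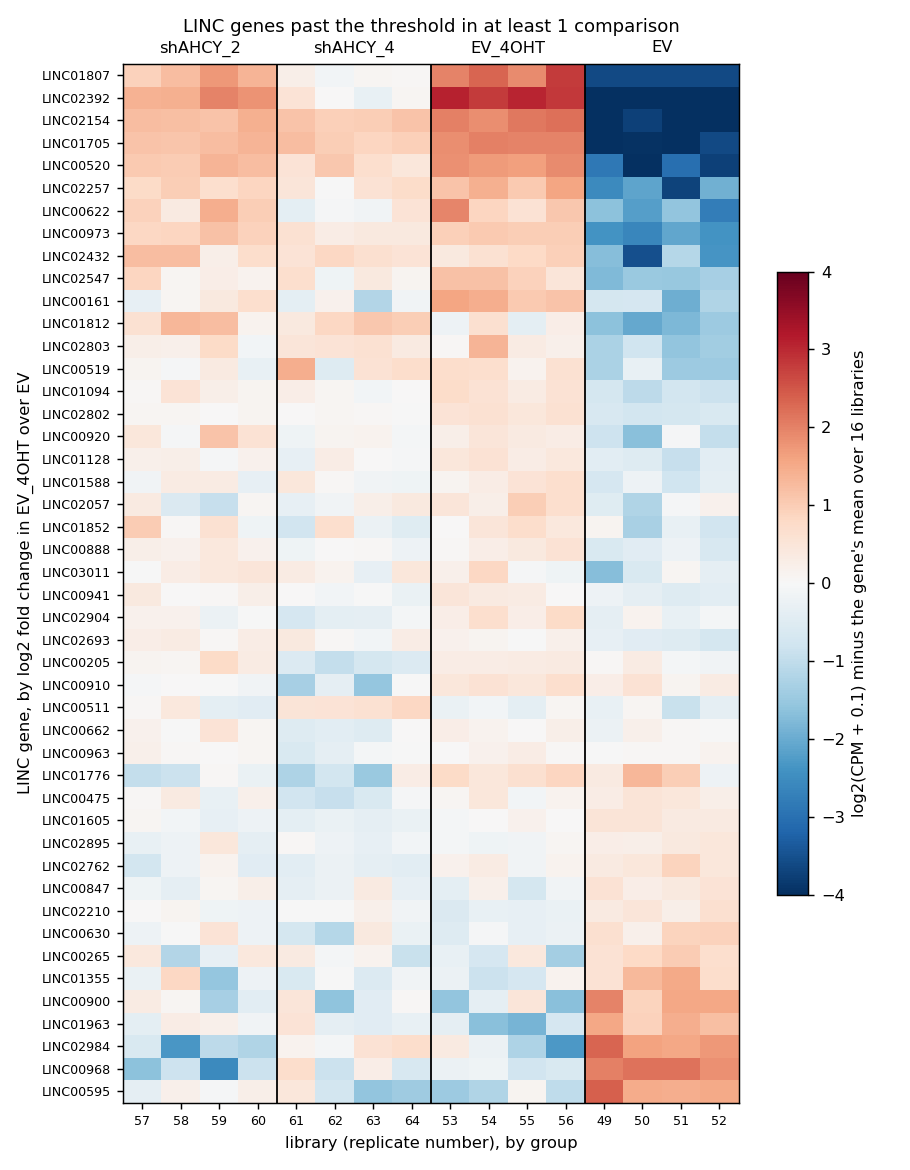
Heat map of the 46 LINC genes that passed the threshold in any comparison (rows) in the 16 libraries (columns, groups left to right shAHCY_2, shAHCY_4, EV_4OHT, EV), as log2(CPM + 0.1) minus each gene's mean over libraries; values past the ends of the colour scale take its end colour. The contrast between EV and the 3 groups given 4OHT is strongest in the top and bottom rows, LINC01807 and LINC02392 at the top and LINC00968 and LINC00595 at the bottom, and weak in the middle rows, where libraries of different groups overlap.

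LINC02392 and LINC01807, on chromosomes 12 and 2, had almost no reads in EV. LINC02392 was at 30.7, 25.5, 30.0 and 26.0 CPM in EV_4OHT, against 0, 0.0683, 0.0529 and 0.0615 CPM in EV. That is 1488 counts in EV_4OHT and 3 in EV, a ratio, scaled for library size, of 617 with a 95% counting interval between 211 and 2994, which covers counting error only. LINC01807 was at 4.74, 6.13, 4.42 and 8.35 CPM in EV_4OHT and at 0 in all 4 EV libraries. Its 312 counts in EV_4OHT put it at least 129-fold higher, with the EV libraries set together at a floor of 3 counts. Neither gene's groups came near each other.

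LINC02154 and LINC01705 were abundant RNAs in senescent cells and low in EV. LINC02154, on chromosome X, was at 57.2, 51, 60.8 and 65.5 CPM in EV_4OHT, against 0.622, 0.956, 0.423 and 0.492 CPM in EV (log2 fold change 6.57 ± 0.17 SE, edgeR adjusted p = 8.2e-19). LINC01705, on chromosome 1, was at 82.5, 92.2, 90.5 and 90.5 CPM in EV_4OHT, against 0.809, 1.37, 0.952 and 1.78 CPM in EV (6.18 ± 0.16, adjusted p = 8.1e-19). LINC00973, on chromosome 3, had the most counts of all 85 genes. It was at 165, 175, 167 and 167 CPM in EV_4OHT, against 16.1, 13.9, 19.9 and 16.0 CPM in EV (3.35 ± 0.11, adjusted p = 4.6e-17). For all 3 genes the lowest EV_4OHT library was far above the highest EV library.

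**Figure D3:**
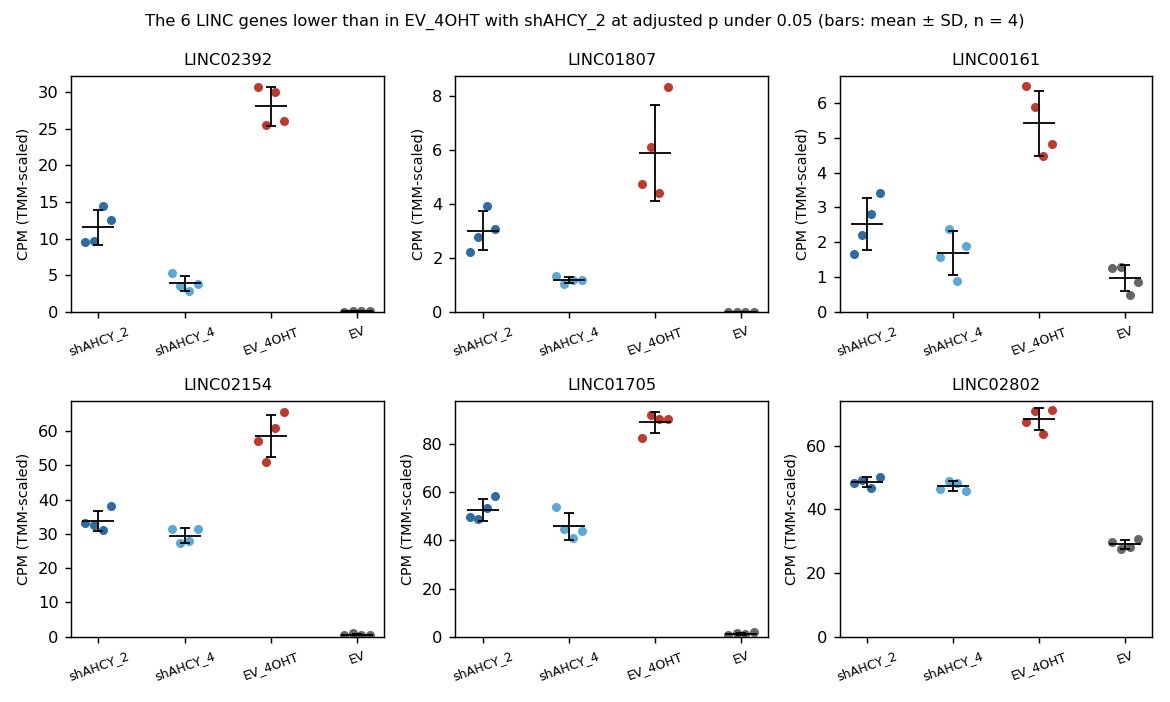
CPM of 6 LINC genes in every library, with the mean and SD of each group of 4 (groups left to right: shAHCY_2, shAHCY_4, EV_4OHT, EV). The genes are those lower in shAHCY_2 than in EV_4OHT at an edgeR adjusted p under 0.05: LINC02392, LINC01807, LINC00161, LINC02154, LINC01705 and LINC02802. LINC02392 is near 0 in EV, between 25.5 and 30.7 CPM in EV_4OHT and intermediate with either hairpin.

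The remaining large increases were in scarcer RNAs. LINC00520, also described as LEENE, an RNA that supports nitric oxide synthase expression in endothelial cells, was at 10.5, 9.66, 9.17 and 11 CPM in EV_4OHT, against 0.311, 0, 0.264 and 0.123 CPM in EV (5.72 ± 0.30, edgeR adjusted p = 3.2e-13). LINC02257, which shares its nearest coding gene with LINC01705, averaged 3.12 ± 0.54 CPM in EV_4OHT and 0.144 ± 0.11 CPM in EV (SD, n = 4 each; log2 fold change 4.42 ± 0.41 SE). LINC00622 averaged 2.42 CPM in EV_4OHT and 0.178 CPM in EV (3.66 ± 0.45), LINC02432 1.76 and 0.199 CPM (3.02 ± 0.44), and LINC02547 3.42 and 0.531 CPM (2.66 ± 0.30). None of these groups overlapped. LINC00622 would be under 200 counts without EV_4OHT, which held 43.6% of its counts, and LINC02432 without shAHCY_2, which held 34.7%. Of the 26 genes that rose, 4 would be under it without their group of most counts. The others were LINC00519 (EV_4OHT) and LINC01812 (shAHCY_4). These genes may have needed other groups as well. Folds of this size against EV levels of 9 to 35 counts over 4 libraries are imprecise. Other abundant genes moved less. LINC02802 was at 67.3, 71.0, 63.8 and 71.3 CPM in EV_4OHT, against 29.7, 27.7, 28.1 and 30.6 CPM in EV (1.24 ± 0.08, edgeR adjusted p = 4.2e-12). LINC02693 averaged 39.3 ± 2.4 CPM in EV_4OHT and 25.8 ± 2.9 CPM in EV (0.61 ± 0.11, adjusted p = 6.7e-05).

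The 13 LINC genes that fell had EV means of 17.4 CPM or less. LINC00595 was at 0.249, 0.314, 0.937 and 0.376 CPM in EV_4OHT, against 4.92, 2.59, 2.54 and 2.64 CPM in EV (-2.69 ± 0.42, edgeR adjusted p = 1.3e-05). LINC00968 was at 0.914, 0.943, 0.603 and 0.677 CPM in EV_4OHT, against 4.67, 5.26, 5.18 and 4.06 CPM in EV (-2.61 ± 0.33, adjusted p = 6e-07). LINC02984 averaged 0.492 ± 0.41 CPM in EV_4OHT and 2.96 ± 0.82 CPM in EV (-2.61 ± 0.43), and its highest EV_4OHT library, at 0.998 CPM, stayed below the lowest EV library, at 2.38 CPM. LINC01963 was at 1.5, 0.55, 0.469 and 1.20 CPM in EV_4OHT, against 5.97, 3.82, 5.60 and 4.67 CPM in EV (-2.45 ± 0.31, adjusted p = 7.7e-07). LINC00900 averaged 0.630 ± 0.52 CPM in EV_4OHT and 2.93 ± 0.87 CPM in EV (-2.16 ± 0.46), and LINC01355 0.607 ± 0.23 and 1.8 ± 0.60 CPM (-1.56 ± 0.41; SD, n = 4 each). Smaller decreases were those of LINC00265 (-1.19 ± 0.40), LINC00630 (-1.01 ± 0.29), LINC02210 (-0.82 ± 0.18), whose annotated locus reads through into CRHR1, and LINC00847 (-0.70 ± 0.19).

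Of the 13 genes that fell, 6 would be under the threshold of 200 without their EV counts: LINC00595, LINC00968, LINC02984, LINC00900, LINC01355 and LINC00265. EV libraries held 74.0% of all LINC00968 counts, 69.1% of LINC00595, 68.3% of LINC02984, 63.3% of LINC00900 and 53.6% of LINC01355. Such genes had to be higher in EV to be counted here at all. The decrease of LINC00265 was lost without EV_4OHT replicate 54 or without replicate 56, at adjusted p between 0.051 and 0.068 in edgeR.

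**Figure D4:**
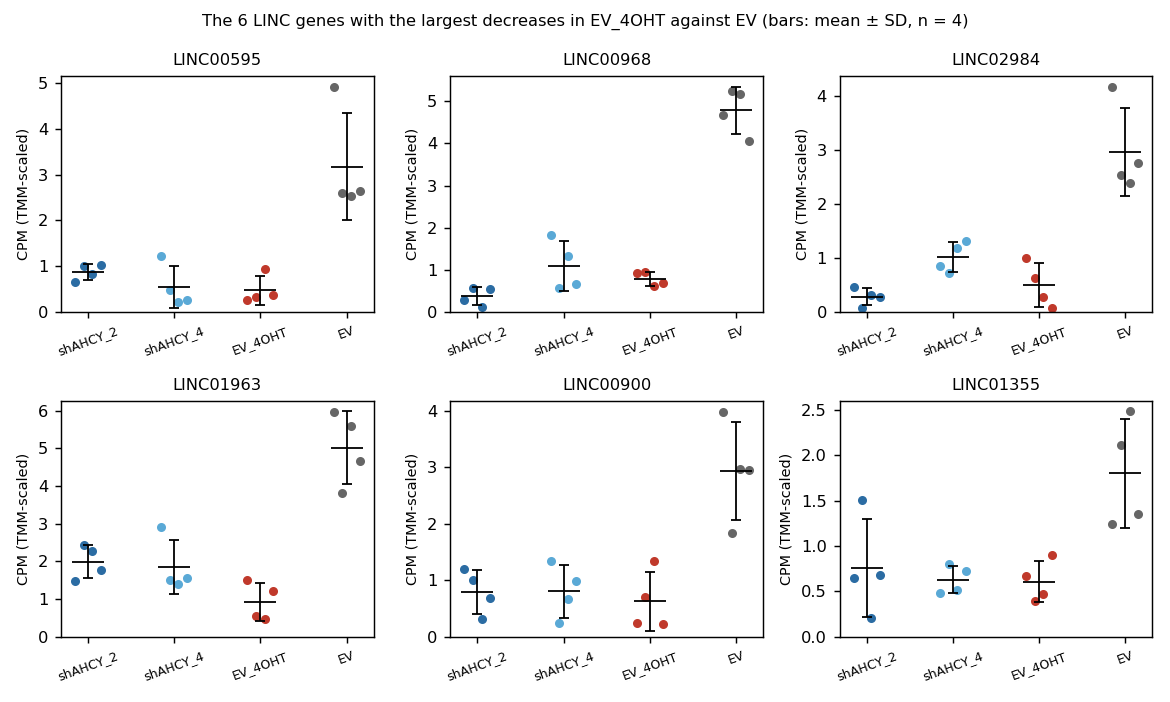
CPM of the 6 LINC genes with the largest decreases in EV_4OHT against EV, in every library, with the mean and SD of each group of 4 (groups left to right: shAHCY_2, shAHCY_4, EV_4OHT, EV). All EV libraries lie above all EV_4OHT libraries, and levels in the 3 groups given 4OHT are near or below 1 CPM in most libraries.

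Against EV_4OHT, shAHCY_2 lowered 6 LINC genes and raised none past the threshold, in the same edgeR fit. The 6 are 7.06% of the 85, and 6.98% of all tested genes passed in either direction, so the share of LINC genes called is near the background. All 6 were called in the downward direction, in which 3.07% of all genes passed, while 3.91% of all genes passed upward. At an unadjusted p under 0.05 there were 21 LINC genes, and the share of all genes at that cutoff was not computed. The median log2 fold change was -0.04 over LINC genes and 0.01 over all genes. LINC00327 (1.31 ± 0.40, edgeR adjusted p = 0.051) and LINC01963 (1.12 ± 0.35, adjusted p = 0.052) missed the threshold upward, and DESeq2, library totals or no filter on low counts called both. LINC00327 would be under 200 counts without shAHCY_2, the group in which it was high, which held 33.7% of its counts. Its value here is therefore not independent of its selection. It is not among the genes the naming rule picks and was chosen after its values were seen.

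With shAHCY_4, 20 LINC genes fell and 1 rose. The 21 are 24.7% of the 85, against 14.4% of all tested genes. Downward calls were 23.5% of LINC genes, against 6.86% of all genes, while 7.58% of all genes passed upward. At 2-fold or more, 8 fell, with no share of all genes computed at that cutoff. The median log2 fold change was -0.23 over LINC genes and 0.01 over all genes. Leaving out shAHCY_4 replicate 62 brought the calls to 13, and leaving out any other library of the comparison to between 14 and 17. Calls over all genes also fell, from 1953 to 1416 without replicate 62 and to between 1401 and 1752 without another library.

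LINC02392, almost absent from EV, fell furthest with both hairpins. It was at 9.53, 9.65, 14.4 and 12.6 CPM in shAHCY_2 and at 5.24, 3.59, 2.89 and 3.79 CPM in shAHCY_4, against 30.7, 25.5, 30.0 and 26.0 CPM in EV_4OHT. The log2 fold change was -1.29 ± 0.15 with shAHCY_2 (edgeR adjusted p = 6.4e-06) and -2.89 ± 0.17 with shAHCY_4 (adjusted p = 9e-11). LINC01807 was second with shAHCY_4. It was at 2.22, 2.79, 3.94 and 3.07 CPM in shAHCY_2 and between 1.04 and 1.34 CPM in shAHCY_4, against the EV_4OHT values given above. Its log2 fold change was -0.98 ± 0.24 with shAHCY_2 (adjusted p = 0.018) and -2.32 ± 0.27 with shAHCY_4 (adjusted p = 8.3e-06). Both RNAs stayed above their EV levels in every hairpin library.

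LINC00161, on chromosome 21, was at 1.67, 2.22, 2.80 and 3.41 CPM in shAHCY_2 and 1.58, 2.39, 0.888 and 1.90 CPM in shAHCY_4, against 6.48, 5.89, 4.49 and 4.81 CPM in EV_4OHT. It fell by 1.09 ± 0.28 on the log2 scale with shAHCY_2 (edgeR adjusted p = 0.019) and by 1.67 ± 0.29 with shAHCY_4 (adjusted p = 0.00044). The shAHCY_2 calls of LINC00161 and LINC01807 were each lost when any of 4 libraries was left out, at adjusted p up to 0.070 and 0.091. These were EV_4OHT replicate 54 and shAHCY_2 replicates 57 and 58 for both genes, with EV_4OHT replicate 53 for LINC00161 and replicate 56 for LINC01807.

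The 3 other genes that passed with both hairpins were abundant. LINC02154 was at 33.2, 32.5, 31.2 and 38.0 CPM in shAHCY_2 and 31.4, 27.3, 27.8 and 31.4 CPM in shAHCY_4, all below the lowest EV_4OHT library, at 51 CPM. It fell by 0.80 ± 0.11 on the log2 scale with shAHCY_2 (edgeR adjusted p = 2.9e-05) and by 0.99 ± 0.11 with shAHCY_4 (adjusted p = 9.3e-07). LINC01705 was at 49.9, 48.8, 53.2 and 58.5 CPM in shAHCY_2 and 53.8, 44.6, 41.1 and 43.7 CPM in shAHCY_4, all below its lowest EV_4OHT library, at 82.5 CPM. It fell by 0.76 ± 0.11 with shAHCY_2 and by 0.96 ± 0.11 with shAHCY_4. LINC02802 was at 48.4, 49.3, 46.7 and 50.3 CPM in shAHCY_2 and 46.4, 49, 48.2 and 45.7 CPM in shAHCY_4, against 63.8 to 71.3 CPM in EV_4OHT. It fell by 0.49 ± 0.07 with shAHCY_2 (adjusted p = 0.00014) and by 0.53 ± 0.07 with shAHCY_4 (adjusted p = 3e-05).

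**Figure D5:**
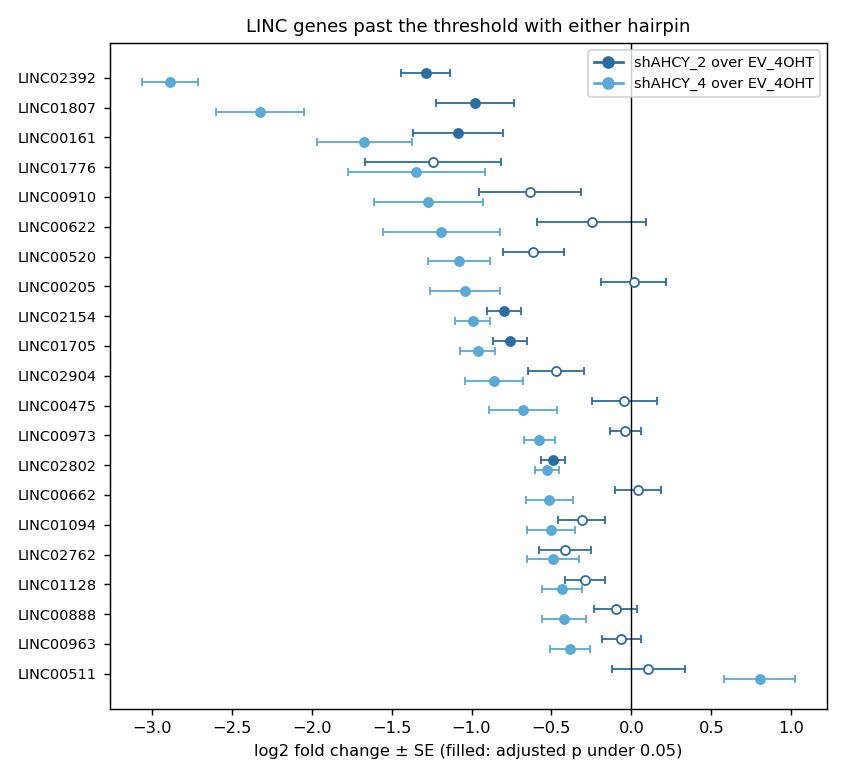
Log2 fold change with SE of every LINC gene past the threshold with either hairpin, for shAHCY_2 and shAHCY_4 over EV_4OHT; filled points have an adjusted p under 0.05. LINC02392 has the largest decrease with each hairpin, -1.29 and -2.89, and LINC00511 is the 1 gene above 0 with shAHCY_4.

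Other genes passed with shAHCY_4 but not with shAHCY_2, which by itself does not show that the hairpins differ. LINC00520, high in senescent cells, was at 6.11, 5.86, 7.58 and 6.83 CPM in shAHCY_2 and 4.26, 6.14, 4.66 and 3.99 CPM in shAHCY_4, against 9.17 to 11 CPM in EV_4OHT. Its log2 fold change was -1.08 ± 0.20 with shAHCY_4 (edgeR adjusted p = 0.00057) and -0.61 ± 0.19 with shAHCY_2 (adjusted p = 0.052). LINC00622 (-1.19 ± 0.36, adjusted p = 0.031), LINC01776 (-1.34 ± 0.43, adjusted p = 0.037) and LINC00910 (-1.27 ± 0.34, adjusted p = 0.014) rested on few reads, LINC00622 being kept only through EV_4OHT as given above, with between 33 and 53 counts over the 4 shAHCY_4 libraries. LINC01776 was lost without any one of 7 of the 8 libraries, at adjusted p up to 0.13, and was kept without shAHCY_4 replicate 64. LINC00622 was lost in limma-voom and without EV_4OHT replicate 53 or 56 or shAHCY_4 replicate 61, 62 or 63, at adjusted p up to 0.16. LINC00910 was lost without shAHCY_4 replicate 63, at adjusted p = 0.058. The 10 other decreases with shAHCY_4, besides the 10 largest, were between 0.38 and 0.86 on the log2 scale, in LINC02904, LINC00475, LINC00973, LINC02802, LINC00662, LINC01094, LINC02762, LINC01128, LINC00888 and LINC00963.

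LINC00511, an RNA known for high levels in several cancers, was the 1 LINC gene that rose with shAHCY_4. It was at 3.98, 5.22, 2.91 and 2.80 CPM in shAHCY_2 and 5.60, 5.74, 5.92 and 6.93 CPM in shAHCY_4, against 3.24, 3.61, 2.95 and 4.14 CPM in EV_4OHT and 3.17, 4.10, 2.06 and 3.01 CPM in EV. The shAHCY_4 libraries were above all others. The log2 fold change was 0.80 ± 0.22 over EV_4OHT (edgeR adjusted p = 0.017), and the call was lost without EV_4OHT replicate 55 or shAHCY_4 replicate 64, at adjusted p between 0.052 and 0.055.

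The hairpins themselves differed in 4 LINC genes, all higher in shAHCY_2 than in shAHCY_4, by the test of that difference in the same edgeR fit. They are 4.71% of the 85, against 1.24% of all tested genes, and 0.702% of all genes passed in this direction. No LINC gene was lower in shAHCY_2 past the threshold with edgeR or DESeq2, and without a filter on low counts 1 was called lower, LINC02984. At an unadjusted p under 0.05 in either direction there were 17 LINC genes, with no share of all genes computed at that cutoff. LINC02392 differed by 1.60 ± 0.18 on the log2 scale (adjusted p = 3.1e-05) and LINC01807 by 1.34 ± 0.29 (adjusted p = 0.026).

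LINC00205, on chromosome 21, passed with shAHCY_4 and between the hairpins but not with RAS activation (0.29 on the log2 scale, edgeR adjusted p = 0.23). It was at 2.96, 2.86, 4.67 and 3.41 CPM in shAHCY_2 and 1.83, 1.35, 1.63 and 1.83 CPM in shAHCY_4, against 3.33, 3.38, 3.41 and 3.53 CPM in EV_4OHT and 2.80, 3.41, 2.54 and 2.46 CPM in EV. The log2 fold change was 0.01 ± 0.20 with shAHCY_2 (edgeR adjusted p = 0.99) and -1.04 ± 0.22 with shAHCY_4 (adjusted p = 0.0024), and the difference of shAHCY_2 over shAHCY_4 was 1.05 ± 0.22 (adjusted p = 0.018). LINC00973 was at 151, 154, 193 and 160 CPM in shAHCY_2, which overlaps EV_4OHT, and at 129, 104, 111 and 110 CPM in shAHCY_4, below all EV_4OHT libraries. Its log2 fold change was -0.04 ± 0.09 with shAHCY_2 (adjusted p = 0.85) and -0.58 ± 0.10 with shAHCY_4 (adjusted p = 0.00023), and the difference was 0.54 ± 0.10 (adjusted p = 0.0043).

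The count of 4 was 2 without shAHCY_2 replicate 59, shAHCY_4 replicate 62 or shAHCY_4 replicate 63. LINC00205 was lost when any of these 3 libraries was left out, or when only the groups compared were fitted, at adjusted p between 0.055 and 0.085. LINC01807 was lost without shAHCY_2 replicate 58, 59 or 60 or shAHCY_4 replicate 62, 63 or 64, at adjusted p between 0.056 and 0.10. AHCY itself differed between the hairpins by 0.34 ± 0.14 on the log2 scale (adjusted p = 0.22), which did not pass the threshold.

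The other 39 LINC genes passed in no comparison. The most abundant of them, LINC00667, was at 24.7, 32.1, 28.2 and 27.1 CPM in shAHCY_2 and 27.9, 26.0, 23.7 and 30.0 CPM in shAHCY_4, against 26.8, 25.6, 25.4 and 25.5 CPM in EV_4OHT and 30.0, 26.4, 32.0 and 27.7 CPM in EV. These ranges overlapped in part, and its log2 fold change for EV_4OHT over EV was -0.17 ± 0.10 (edgeR adjusted p = 0.15). LINC02693 did not pass with either hairpin, at 0.12 ± 0.11 with shAHCY_2 and 0.05 ± 0.11 with shAHCY_4 over EV_4OHT.

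The nearest coding genes were set beside the LINC genes, with no test of the pairing. For 64 pairs of a LINC gene and its nearest coding gene in GENCODE 29 both members were tested. In EV_4OHT over EV, 16 pairs had both members past the threshold, 8 of them in the same direction. Among 204 pairs of other annotated lincRNA genes, 48 had both past it and 29 moved in the same direction. DUSP10, a phosphatase of stress-activated kinases and the nearest coding gene of both LINC01705 and LINC02257, fell by 1.20 ± 0.07 on the log2 scale (edgeR adjusted p = 4.6e-12), while both LINC genes rose. ATP2B1, a plasma membrane calcium pump next to LINC02392, rose by 0.88 ± 0.08 in senescent cells and changed by 0.01 ± 0.08 with shAHCY_2 (adjusted p = 0.96) and 0.08 ± 0.08 with shAHCY_4 (adjusted p = 0.59), where LINC02392 fell. PID1, next to LINC01807, had log2 fold changes of 0.36 ± 0.14 in EV_4OHT over EV (adjusted p = 0.037), 0.33 ± 0.14 with shAHCY_2 (adjusted p = 0.18) and 0.46 ± 0.14 with shAHCY_4 (adjusted p = 0.031). DCBLD2, next to LINC00973, was at -0.15 ± 0.12 in EV_4OHT over EV (adjusted p = 0.31). DKK3, a secreted protein of the Dickkopf family next to LINC02547, fell by 1.08 ± 0.07. CADM1, a cell adhesion molecule next to LINC00900, fell by 0.64 ± 0.11, as LINC00900 did. These neighbours are examples, and those of other named LINC genes also passed in EV_4OHT over EV. RALA, next to LINC00265, rose by 1.62 ± 0.09 (edgeR adjusted p = 4.9e-13) while LINC00265 fell. ZNF697, next to LINC00622, rose by 0.85 ± 0.14 (adjusted p = 2.9e-05), as LINC00622 did. With shAHCY_4, 3 pairs had both members past the threshold, 1 of them in the same direction.

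Long noncoding RNAs with a descriptive name gave a wider frame. Of a list of 60, 55 had a measured gene and 46 were tested. In EV_4OHT over EV 13 of the 46 rose and 10 fell, while 26.7% of all tested genes rose and 26.8% fell. The median log2 fold change over the 46 was 0.10. LUCAT1, a stress-responsive RNA, averaged 2.54 ± 0.22 CPM in shAHCY_2, 2.47 ± 0.57 CPM in shAHCY_4, 5 ± 0.35 CPM in EV_4OHT and 0.354 ± 0.063 CPM in EV (SD, n = 4 each). It rose by 3.80 ± 0.26 with RAS activation, and its log2 fold change was -0.97 ± 0.20 with shAHCY_2 (edgeR adjusted p = 0.0039) and -1.03 ± 0.20 with shAHCY_4 (adjusted p = 0.0013). MIR31HG, the host gene of miR-31, rose by 1.64 ± 0.16 with RAS activation, SNHG16, a snoRNA host, by 0.96 ± 0.07, and MIR100HG, a microRNA cluster host, fell by 1.60 ± 0.13. CYTOR and MIR4435-2HG are near-identical paralogs, so how their reads were split is uncertain. They rose by 0.92 ± 0.09 and 0.86 ± 0.09 in EV_4OHT over EV.

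Of the same 46, 1 gene rose and 4 fell with shAHCY_2, where 3.91% of all tested genes rose and 3.07% fell. With shAHCY_4, 2 of the 46 rose and 5 fell, where 7.58% of all tested genes rose and 6.86% fell. DANCR, a snoRNA host that restrains differentiation, rose with both, by 0.55 ± 0.09 with shAHCY_2 (edgeR adjusted p = 0.0006) and 0.72 ± 0.09 with shAHCY_4 (adjusted p = 1.2e-05). CYTOR fell by 0.44 ± 0.09 with shAHCY_2 and by 0.69 ± 0.09 with shAHCY_4, and MIR4435-2HG by 0.35 ± 0.09 and 0.60 ± 0.09. SNHG7 fell by 0.83 ± 0.23 with shAHCY_2, and TP53TG1 by 0.47 ± 0.13 and CRNDE by 2.39 ± 0.70 with shAHCY_4, where CRNDE averaged 0.126 CPM, against 0.665 CPM in EV_4OHT. The other gene that rose with shAHCY_4 was CARMN (1.34 ± 0.44), named here after its values were seen.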

How the data were processed

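Full-length cDNA of 16 samples was sequenced after Smart-Seq2 and Nextera XT, per the labels' protocols. The deposited table holds raw read counts per Ensembl gene, as the authors made them with CASAVA 1.8.2, TopHat2 2.0.11 and featureCounts 1.18.0 on hg19 (GRCh37), per the submitters' processing notes. How strand and multiply mapped reads were treated, and with which annotation release, was not given in the sources used here. Symbols matched 39007 of 62069 identifiers, and the rest held 0.635% of counts. No per-sample column was left unused (0).

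From these counts, edgeR 4.0.16 (R 4.3.3) was fitted to all 16 libraries at once, with TMM scaling, filterByExpr by group (13526 genes kept) and two-sided quasi-likelihood tests, Benjamini-Hochberg adjusted over all genes tested at 0.05. The biological coefficient of variation was 11.9%. SE is the size of the log2 fold change over the root of F. CPM (counts scaled to a common library size) use the TMM factors. The sums of cell type markers are instead scaled by each library's total counts alone. The script was tested on simulated data. Alternatives used DESeq2 1.42.0, limma 3.58.1, other scalings, filters, count minimums and leaving out each library. Shares of counts were compared by exact permutation. Gene types, lengths and neighbours came from GENCODE 29, matched by Ensembl ID, and promoters from RefSeq.

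Members and lists were chosen with earlier results of these data known. Genes are named by rule: the 10 largest changes each way with RAS activation, up to 10 each way per hairpin comparison, the 6 with most counts and those at the threshold. At most 6 of the other noncoding RNAs are named per comparison. Only some of the nearest coding genes are named, as examples that no rule picked. More deeply sequenced libraries give less error: genes with few counts in a group have the largest SE.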

Additional observations from a re-analysis of the deposited data

Results flagged for a closer look

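Of 116 groups of 4 libraries examined among the named genes, 4 had 1 library far from the others by Dixon's test, which chance gives in about 1 of 20 groups. LINC00667 was at 26.8 CPM in EV_4OHT replicate 53, against 25.4 to 25.6 CPM in the other 3 libraries. LINC00847 was at 8.88 CPM in shAHCY_4 replicate 63, against 5.36 to 5.82 CPM. LINC01963 was at 2.92 CPM in shAHCY_4 replicate 61, against 1.41 to 1.57 CPM. LINC00595 was at 4.92 CPM in EV replicate 49, against 2.54 to 2.64 CPM.

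The effects of the hairpins differed for 4 genes by the edgeR test of the difference itself, shAHCY_2 over shAHCY_4 on the log2 scale: LINC02392 by 1.60, LINC01807 by 1.34, LINC00205 by 1.05 and LINC00973 by 0.54.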

How the results depend on the processing

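No paired analysis was possible because the replicate numbers are not shared between groups. Of 614 values of named genes under alternatives, 578 kept direction and call, 36 kept direction and lost the call, and none reversed. With the minimum of total counts at 100, 59 of 131 tested genes were called with RAS activation. At 1000 it was 16 of 30 with RAS activation, 13 of 30 with shAHCY_4 and 2 of 30 between hairpins, while 53.5%, 14.4% and 1.24% of all genes were called in these comparisons. With shAHCY_2, the genes called among these 30 were LINC02802, LINC01705, LINC02154 and LINC02392, while 6.98% of all genes were called. Leaving out 1 library gave 35 to 40 calls with RAS activation, 4 to 8 with shAHCY_2, 13 to 17 with shAHCY_4 and 2 to 4 between hairpins. The differences in share of counts were then 0.0367 to 0.0376, -0.0107 to -0.00952, -0.0209 to -0.0193 and 0.00920 to 0.0108 percentage points in the same order, where 3 against 4 libraries give p = 0.0571 at the least in the exact permutation test used, 2 times the smaller one-sided p. Genes with few counts are limited by depth, and a difference not called for them does not show that there was none.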

Other observations

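The LINC symbol is a naming stage, and 9 genes over 200 counts carried a LINC symbol in GENCODE 29 but now have another, so they stand outside the 85. LNCOG, with 9835 counts, would rank among the most abundant. It averaged 55.9 ± 1.8 CPM in shAHCY_2, 48.9 ± 4.0 CPM in shAHCY_4, 64.9 ± 6.0 CPM in EV_4OHT and 18.5 ± 2.5 CPM in EV (SD, n = 4 each). It rose by 1.81 ± 0.10 on the log2 scale with RAS activation (edgeR adjusted p = 6.4e-13) and fell by 0.41 ± 0.09 in shAHCY_4 over EV_4OHT (adjusted p = 0.0054). With shAHCY_2 its log2 fold change was -0.22 ± 0.09 (adjusted p = 0.18). SNHG30 rose by 0.77 ± 0.16 (adjusted p = 0.00035) and ZNF567-DT by 1.13 ± 0.34 (adjusted p = 0.0075) with RAS activation. The other 6, ZC3H12A-DT, SWINGN, LASP1NB, ZNF407-AS1, SLC12A2-DT and ERCC6L2-AS1, did not pass with edgeR in the comparisons of EV_4OHT with EV or of a hairpin with EV_4OHT.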
